A study of Mus musculus with 12 samples.

Results

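The genes described here build the chemical synapse: 40 genes of synaptic vesicles, the active zone, synaptic adhesion and the postsynaptic scaffold, read in RNA sequencing of whole mouse spinal cord. They were picked by gene name from a list written with earlier results of these data known, and all 40 were found among the 54532 genes of the count table. Each had counts in each of the 12 libraries and passed the filter on low counts. The members fall into 7 roles: vesicle fusion (4 genes), calcium sensing and clamping of fusion (7), the vesicle membrane and vesicle cluster (8), vesicular glutamate transport (3), the active zone (6), adhesion (5) and the postsynaptic scaffold (7).

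At a nerve terminal, vesicles filled with transmitter are tethered and primed at the active zone. Fusion is driven by the SNARE proteins, held in check by complexins and triggered by calcium binding to synaptotagmins. Neurexins of the terminal bind neuroligins of the receiving cell across the cleft, where PSD-95, Shank and Homer proteins anchor glutamate receptors and gephyrin anchors glycine and GABA receptors. In the spinal cord such synapses connect sensory fibres, interneurons and motor neurons, and their RNA is made mainly in neuronal cell bodies.

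There were 3 mice in each of 4 groups of C57BL/6 mice aged 2 to 3 months. The control groups (labelled wt, littermates) and the groups with a conditional knockout of the dopamine receptor gene Drd2 (labelled Drd2mGFAP cKO, here cKO) were sampled either healthy (basal) or on day 17 of EAE (experimental autoimmune encephalomyelitis), an immune attack on myelin that is used as a model of multiple sclerosis. The cKO name contains GFAP, the filament gene whose promoter is active in astrocytes, and which cells lost the gene was not measured here. The study asked, by its title, about the role of astrocytic DRD2 in inflammation of the central nervous system.

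Library totals ran from 15128913 to 17592105 counts, and levels are given as CPM, counts per 1000000 counts scaled by TMM factors. The mean of Drd2 was not lower in cKO mice, with 21.9 ± 4.02 and 28.6 ± 9.50 CPM for control and cKO at basal. At EAE it was 9.17 ± 0.396 and 12.9 ± 6.34 CPM in control and cKO mice (SD, n = 3 each). The cKO libraries were at 17.6, 33.4 and 34.7 CPM at basal and 6.73, 12.5 and 19.4 CPM at EAE. Control libraries ran from 19.4 to 26.5 and from 8.89 to 9.62 CPM. Thus cKO basal 1 and cKO EAE 1 lay below the control range and the other cKO libraries above it. The counts cover the whole gene, so they check no deleted part. The log2 difference was 0.40 (SE 0.34, adjusted p = 0.997) at basal and 0.52 (SE 0.35, adjusted p = 0.318) at EAE by the edgeR quasi-likelihood F test. Xist, RNA of the inactive X chromosome, stood at 309 to 796 per 1000000 total counts in the 6 basal libraries and at most 0.292 in the 6 EAE libraries, while the Y-linked Ddx3y had 0 counts in every basal and 1177 to 1295 in every EAE library. Sex and disease therefore cannot be told apart in any contrast of EAE with basal, and Syn1, Syp and Nlgn3 lie on the X chromosome. Markers of neurons, astrocytes, oligodendrocytes and motor neurons were present in each library, as spinal cord should have, while Mrgprd of sensory ganglia was at 0 throughout.

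Libraries cKO basal 2 and cKO EAE 3 each differed widely from their group. The former had 17220 detected genes, against 24303 to 26056 in the other 11 libraries, and 8 ribosomal protein mRNAs summed to 15416 CPM against 1150 to 2901. There 21 of the 40 members differed by over 2-fold from their mean in control basal, 14 below and 7 above, from -3.80 (Shank3) to 2.23 (Slc17a8) on the log2 scale. In cKO EAE 3 the 7 markers of microglia and macrophages summed to 167 CPM, against 1221 to 7829 CPM in the other 5 EAE libraries and 112 to 138 CPM in the basal libraries, and the members had a median of 0.05 (log2) from the control basal mean. Results that rest on these 2 libraries are given with and without them. Library control basal 1 had lower levels of members with a large gene length, as given with the counts. Spearman's rho between the library's deviation and that length was -0.55 over the 40 genes, given as a description over genes that share 1 library. Library cKO EAE 1 differed in its neuron markers, as given with the paralogue ratios.

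In basal control cord the members spanned a wide range of levels. Per kilobase of transcript, which allows genes to be compared, the complexin gene Cplx1 was highest at 589.8 ± 18.7 CPM per kb (SD, n = 3). The SNARE gene Snap25 followed at 338 ± 54.0, then Syt11 at 191 ± 10.6. Below them Vamp1 (132 ± 2.16 CPM per kb) and Syn1 (132 ± 10.5) did not differ beyond their spread, nor did Sv2a (108 ± 6.42) and Syp (107 ± 3.72). The scaffold genes were lower, from 22.3 ± 8.63 CPM per kb for Shank1 and 20.8 ± 2.69 for Dlg4 to 2.03 ± 0.0849 for Homer1. Among the 3 vesicular glutamate transporters the cord expressed Slc17a6 (VGLUT2, the form of spinal and brainstem neurons) at 46.0 ± 3.91 CPM per kb, while Slc17a7 (VGLUT1) and Slc17a8 (VGLUT3) were the 2 lowest members at 0.378 ± 0.147 and 0.391 ± 0.115. Those 2 did not differ beyond their spread.

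Upstream sequence was read for the members because many neuronal genes carry RE1 elements, which the repressor REST binds in cells other than neurons, and because cAMP response elements sit near the starts of many activity-dependent genes. RefSeq windows from 250 bases before to 50 after a start (build GRCm38.p6) were given for 30 of the 40 members, 47 windows in all. The left part of the RE1 element, TTCAGCACC, searched on both strands, was in 122 of 32851 windows of that length (0.371%) and in those of Nlgn1, Syn1 and Unc13a. The cAMP response element TGACGTCA, which reads the same on both strands, was in 588 windows (1.79%), among the members in that of Syn1. AGCACC followed after any 2 bases by GGACAG, both parts of RE1 together, was in 17 windows (0.0517%) and in 0 members. Only exact letters were searched, so a site with a differing base was not found. In Syn1 the letters at that place read GGTCAG, where GGACAG was searched. The stretches of Syn1 and Nlgn1 are shown because their matches lie before the start, while the match of Unc13a lies at bases 23 to 31 after it. Capitals mark the matches, and no match is a test of a bound factor. The stretch of Syn1 is chrX:20921045-20921168 on the minus strand, 250 to 127 bases before the start, outside any GENCODE transcript. That of Nlgn1 is chr3:26154106-26154164 on the minus strand, 178 to 120 bases before a second start inside the gene, in an intron of 2 longer transcripts and in 0 exons.
Syn1: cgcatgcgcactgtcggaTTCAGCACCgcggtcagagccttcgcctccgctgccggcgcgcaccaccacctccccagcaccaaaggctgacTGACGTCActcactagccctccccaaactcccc
Nlgn1: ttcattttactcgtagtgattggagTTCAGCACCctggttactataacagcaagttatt

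**Figure D1:**
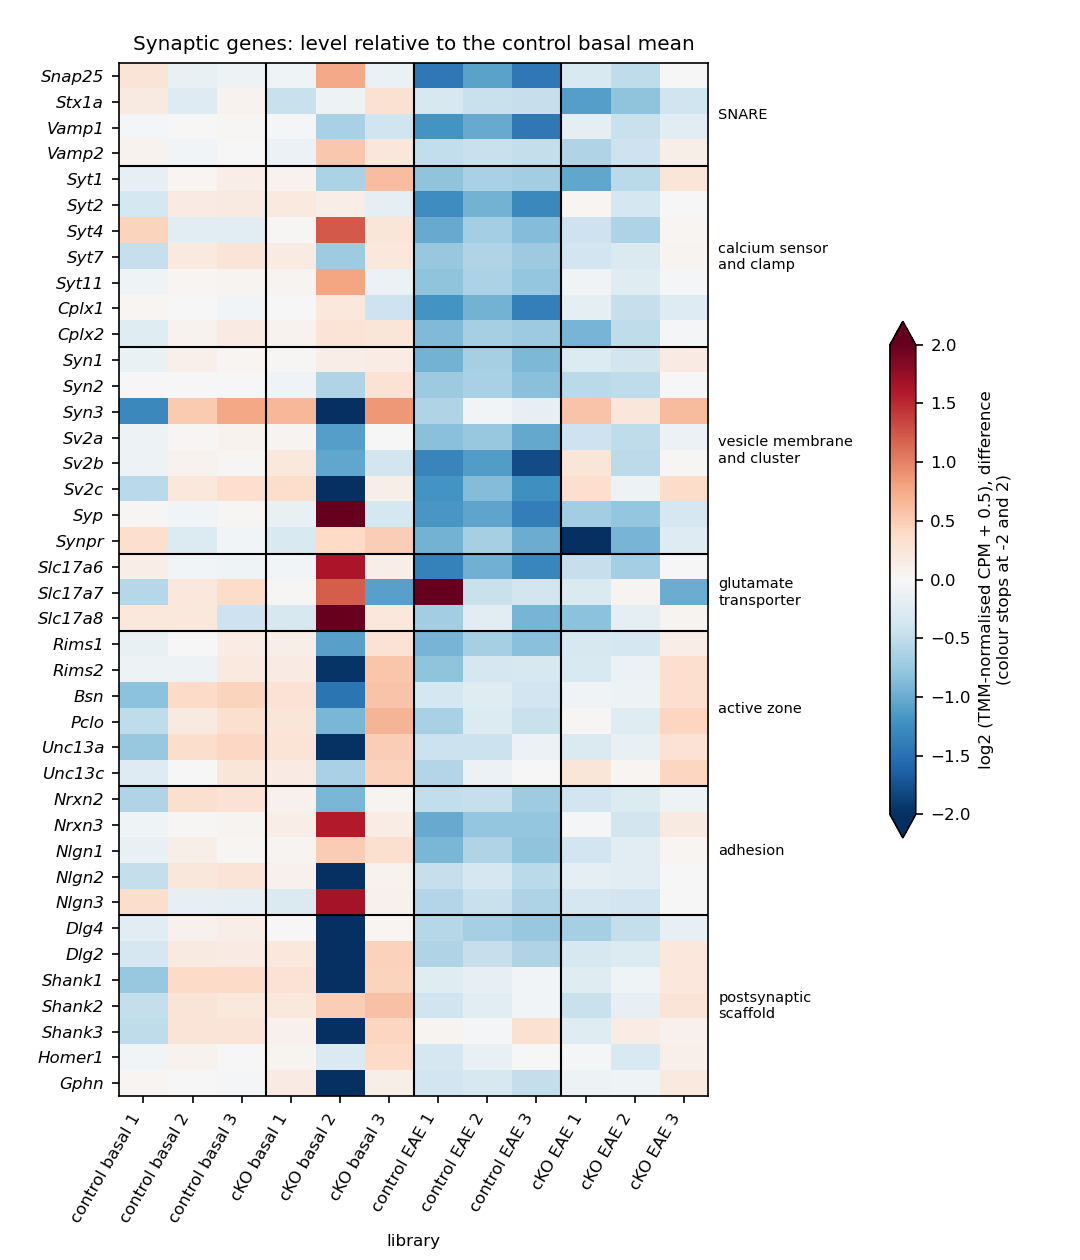
Heat map of the 40 genes (rows, grouped by role) in the 12 libraries (columns), coloured by the difference of log2 (CPM + 0.5) from the control basal mean, with the colour scale ending at -2 and 2. The 3 control EAE columns are blue for most genes of the upper roles and pale for the postsynaptic scaffold, cKO EAE 1 and 2 are in between, cKO EAE 3 lies near the basal level, and cKO basal 2 departs in both directions.

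The first comparison asked how EAE changed synaptic RNA in control mice. The genes called lower were 7 of vesicles and vesicle fusion and 1 of adhesion, and no gene of the active zone or the postsynaptic scaffold was called. Of the 40 members 8 were called lower (Snap25, Vamp1, Syt2, Cplx1, Cplx2, Syn1, Sv2b and Nlgn1) and 0 higher, at a Benjamini-Hochberg adjusted p below 0.05 by the edgeR quasi-likelihood F test over 18601 genes. In the same test 5.05% of all genes were called lower. The fitted change was below 0 for 38 members, with a median log2 fold change of -0.73 against -0.01 over all genes. All 3 EAE libraries lay below all 3 basal libraries for 27 members, against 27% of all genes. In whole tissue, fewer neurons and less RNA per neuron cannot be told apart. Summed over the 40 genes, the level was 12334, 13262 and 13546 CPM in control basal and 6613, 7605 and 6531 CPM in control EAE. The 11 neuron markers summed to 9128, 9251 and 8447 and to 4194, 4741 and 3423 CPM in the same libraries, and all 11 had a fitted change below 0 (6 called). The members' sum over that of the neuron markers was 1.35, 1.43 and 1.60 at basal and 1.58, 1.60 and 1.91 at EAE. The 7 markers of microglia and macrophages went from 129, 138 and 124 to 7829, 4130.0 and 3318 CPM. The part of these cell types in the result was not tested.

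Among the SNARE genes Snap25 and Vamp1 were called lower. Snap25 (ENSMUSG00000027273, chromosome 2, 136713453 to 136782428, plus strand, build mm10) encodes the membrane SNARE of the terminal. It was at 2716, 2055 and 2111 CPM in the control basal libraries and at 848, 1078 and 841 CPM in the control EAE libraries, a log2 fold change of -1.31 (SE 0.28, adjusted p = 0.00979). Vamp1 (ENSMUSG00000030337, chromosome 6, 125215551 to 125245964, plus strand), the vesicle SNARE most used by motor and brainstem neurons, went from 1319.5, 1348 and 1363 CPM to 589, 671 and 499.8 CPM, a change of -1.20 (SE 0.21, adjusted p = 0.00415). In both genes the lowest basal library was above the highest EAE library. The other vesicle SNARE, Vamp2, was at 334 ± 14.1 and 241 ± 2.91 CPM and the plasma membrane SNARE Stx1a at 21.02 ± 3.31 and 15.6 ± 0.904 CPM (mean ± SD). Neither was called, although their EAE libraries lay below their basal libraries without overlap.

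Of the calcium sensors and clamps 3 of 7 were called. Syt2 (ENSMUSG00000026452, chromosome 1, 134646677 to 134762593, plus strand) is a fast calcium sensor of spinal cord and brainstem terminals. Its level was 555, 788 and 801 CPM at basal and 299, 366 and 287 CPM at EAE, so that no library overlapped, with a change of -1.17 (SE 0.22, adjusted p = 0.00514). Cplx1 (ENSMUSG00000033615, chromosome 5, 108518554 to 108550024, minus strand), which clamps and readies the SNARE complex, was at 1327, 1299.8 and 1247 CPM and then 565, 669 and 498 CPM, a change of -1.16 (SE 0.21, adjusted p = 0.00454). Its relative Cplx2 was at 218, 271 and 288 CPM and at 139.5, 163 and 155 CPM, a change of -0.77 (SE 0.23, adjusted p = 0.0402). In each of the 3 genes all EAE libraries were the low ones. Syt1, the calcium sensor of most forebrain synapses, went without a call from 185 ± 19.7 to 112 ± 6.63 CPM, at -0.72 (SE 0.35, adjusted p = 0.203). Syt11, a synaptotagmin that does not bind calcium, went from 993 ± 55.0 to 597 ± 39.9 CPM, at -0.73 (SE 0.24, adjusted p = 0.0572). The levels of Syt4 (147 ± 42.0 and 79.8 ± 9.40 CPM) and Syt7 (179.6 ± 45.5 and 108 ± 5.97 CPM) gave no call either, and in all 4 genes the groups did not overlap.

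On the vesicle itself 2 of 8 genes were called. Syn1 (ENSMUSG00000037217, chromosome X, 20860511 to 20921004, minus strand), which tethers vesicles to each other, was at 397, 464 and 445 CPM at basal and at 226, 275 and 233 CPM at EAE, a change of -0.83 (SE 0.19, adjusted p = 0.0114). Sv2b (ENSMUSG00000053025, chromosome 7, 75114894 to 75309262, minus strand), a vesicle glycoprotein, had the largest fitted fall of the members. Its basal libraries were at 129, 144 and 141 CPM and its EAE libraries at 55.1, 63.3 and 39.4 CPM, a change of -1.39 (SE 0.32, adjusted p = 0.0132). Both genes had all EAE libraries below all basal ones. Exons of Syn1 overlap those of Araf and exons of Sv2b those of 1500012K07Rik on the other strand, and the strand setting of the counting is unknown, so a part of these counts is uncertain. Just outside the threshold lay Sv2a at -0.87 (SE 0.27, adjusted p = 0.0523) and Syn2 at -0.74 (SE 0.23, adjusted p = 0.0532), the latter sharing exons with Timp4. Synaptophysin, Syp, the most abundant vesicle membrane protein, was at 567, 534 and 568 CPM and at 248, 267 and 214 CPM, without overlap, yet its change of -1.20 (SE 0.52, adjusted p = 0.153) was not called. That fit shares its spread with cKO basal 2, where Syp was at 2249 CPM. Sv2c (486 ± 144 to 221 ± 30.8 CPM) and Synpr (30.6 ± 6.86 to 16.4 ± 2.08 CPM) also had no overlap and no call. Syn3, whose exons overlap Timp3, was at 6.49, 23.9 and 28.6 CPM and at 10.8, 15.9 and 14.8 CPM, and its groups overlapped through control basal 1.

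None of the 3 glutamate transporters was called. Slc17a6 loads glutamate in excitatory spinal neurons, and went from 273, 239.6 and 233 CPM to 96.6, 128 and 100.5 CPM, without overlap, at -1.20 (SE 0.40, adjusted p = 0.0641). Slc17a7 was low, at 1.14, 2.32 and 2.65 CPM at basal and at 10.4, 1.302 and 1.40 CPM at EAE, and 1 library set its fitted change of 1.09 (SE 0.89, adjusted p = 0.49). Control EAE 1 held 180 counts of it against 11 to 57 in the other 11 libraries, and without that library the change was -0.67. The 7 markers of sensory ganglia, which use this transporter, summed to 13.3, 10.5 and 6.18 CPM in the control EAE libraries, most of it Calca, and their part in the result was not tested. Slc17a8 was at 1.84 ± 0.544 and 1.03 ± 0.402 CPM with overlapping groups.

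At the active zone 0 of 6 genes were called. Rims1, a vesicle priming scaffold, came closest, from 102 ± 10.5 to 58.0 ± 5.33 CPM without overlap, and Rims2 was at 73.3 ± 8.72 and 52.4 ± 9.44 CPM, also without overlap. The giant scaffold proteins Bassoon and Piccolo and the priming factors Munc13-1 and Munc13-3 are made from Bsn, Pclo, Unc13a and Unc13c, and in these 4 genes the groups overlapped. Control basal 1 was the low basal library in each of them: Bsn stood at 84.6, 195 and 203 CPM at basal and at 118, 127 and 115 CPM at EAE, and Unc13a at 104, 224 and 236 and 130.2, 132 and 163 CPM. Pclo was at 171 ± 47.7 and 121 ± 15.7 CPM and Unc13c at 205 ± 35.2 and 174 ± 35.0 CPM.

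Of the adhesion genes 1 of 5 was called. Nlgn1 (ENSMUSG00000063887, chromosome 3, 25426215 to 26332460, minus strand), the neuroligin of excitatory synapses, went from 32.1, 39.0 and 36.4 CPM to 18.8, 23.4 and 20.2 CPM, without overlap, a change of -0.79 (SE 0.19, adjusted p = 0.0176). Its neurexin partner Nrxn3 was at 186 ± 9.62 and 103 ± 9.32 CPM and Nlgn3 at 34.9 ± 7.83 and 23.3 ± 1.58 CPM, each without overlap and without a call. The groups of Nrxn2 (264 ± 84.1 and 173 ± 16.6 CPM) and Nlgn2 (236 ± 62.0 and 169 ± 12.1 CPM) overlapped.

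The postsynaptic scaffold was the role with the smallest fitted changes, a median of -0.26 over 7 genes with 0 called; a difference between roles was not tested. Dlg4, which encodes PSD-95, was at 235, 289.8 and 302 CPM at basal and 185, 172 and 163 CPM at EAE without overlap, at -0.67 (SE 0.53, adjusted p = 0.478). Gphn, the gephyrin gene of inhibitory synapses, was at 76.7, 75.2 and 72.5 CPM and 57.2, 59.7 and 53.9 CPM, also without overlap, at -0.39 (SE 0.60, adjusted p = 0.745). Dlg2 (175 ± 33.5 and 118 ± 6.83 CPM) was the third scaffold gene without overlap. Shank1, Shank2, Shank3 and Homer1 overlapped between the groups. The levels were 234 ± 90.7 and 199 ± 12.6 CPM for Shank1, 53.7 ± 14.1 and 44.9 ± 5.43 for Shank2, 77.0 ± 21.5 and 81.4 ± 10.1 for Shank3, and 24.4 ± 1.02 and 21.9 ± 2.61 for Homer1. Shank3 and Slc17a7 were the 2 members with a fitted change above 0.

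**Figure D2:**
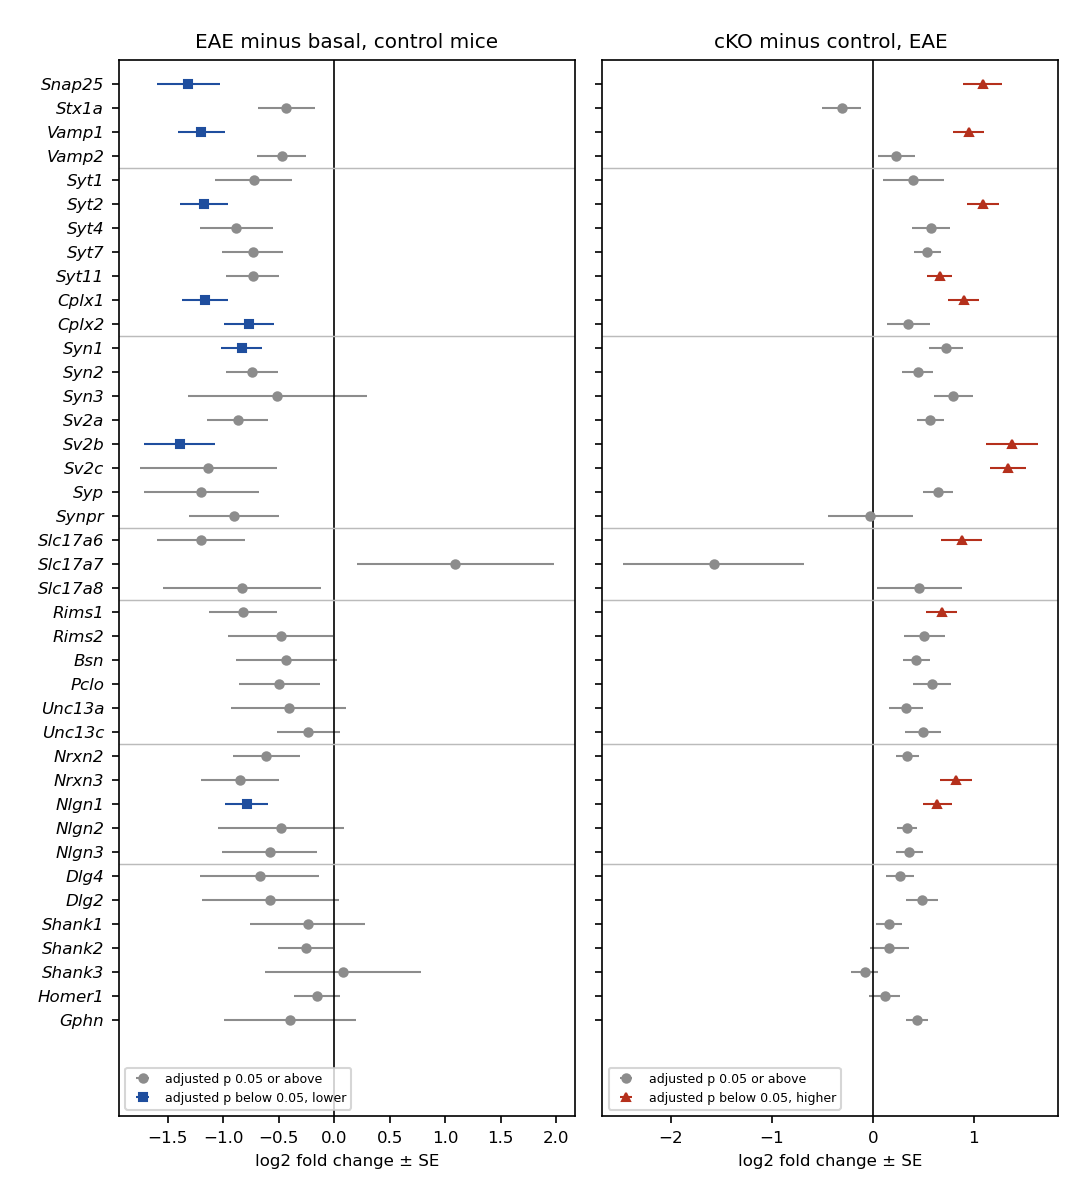
Fitted log2 fold change ± SE of the 40 genes for EAE minus basal in control mice (left) and cKO minus control at EAE (right), with genes grouped by role and symbols marking the calls. On the left 8 genes are called lower, from Sv2b at -1.39 to Cplx2 at -0.77, and on the right 11 are called higher, from Sv2b at 1.38 to Nlgn1 at 0.64.

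The number of calls depended on libraries of the other genotype that share the fit. Without cKO basal 2 and cKO EAE 3, 28 of the 40 members were called lower and 0 higher, where 20.8% of all genes were called lower, while the median stayed at -0.72. Those 28 held all 8 of the fit with every library. In that fit all 7 calcium sensors and clamps, 7 of 8 vesicle genes, all 5 adhesion genes and 3 of 4 SNARE genes were called, against 2 of 6 at the active zone and 3 of 7 in the scaffold (Dlg4, Dlg2 and Gphn). Syp, Slc17a6, Syt1 and Syt11 were then called at -1.19 (SE 0.12), -1.19 (SE 0.14), -0.72 (SE 0.17) and -0.73 (SE 0.12), with adjusted p of 6.84e-06, 1.92e-05, 0.00402 and 0.000397 by the edgeR quasi-likelihood F test. Leaving out single libraries gave 5 calls without control EAE 3, where 9.28% of all genes were called in either direction, and 24 without cKO basal 2, where 42.9% were. With every library 17.1% were.

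The same question was asked of cKO mice, where 0 of 40 members were called by the edgeR quasi-likelihood F test, where 0.00538% of all genes were called lower and 0.0323% higher. An unadjusted p below 0.05 was reached by 11 members and by 3643 of all 18601 genes. DESeq2's Wald test also called 0 members, where it called 6.66% of all genes in either direction. The median log2 fold change was -0.15, against 0.08 over all genes. The members summed to 13314, 15622 and 12860.5 CPM in cKO basal and 10916, 9835 and 12909.7 CPM in cKO EAE. The smallest p belonged to Syp, at 504, 2249 and 434 CPM in cKO basal and 343, 327 and 442 CPM in cKO EAE. Its change of -1.52 (SE 0.52, adjusted p = 0.186) was -0.34 without cKO basal 2, the high library. The synaptoporin gene Synpr, a relative of Syp, was at 24.3, 39.8 and 42.7 CPM and then 6.78, 15.5 and 24.98 CPM, at -1.17 (SE 0.41, adjusted p = 0.189), with cKO EAE 1 lowest. Slc17a6 was at 238, 768 and 272 CPM and then 181, 155 and 247 CPM, at -1.13 (SE 0.40, adjusted p = 0.192), with overlap between the groups. Cplx2 and Nlgn1 were the 2 members in which all cKO EAE libraries lay below all cKO basal libraries, where 5.78% of all genes did so. Cplx2 went from 269, 309.6 and 304 CPM to 135, 182 and 253 CPM, at -0.63 (SE 0.23, adjusted p = 0.194), and Nlgn1 from 37.1, 50.8 and 44.5 CPM to 27.3, 30.7 and 36.7 CPM, at -0.48 (SE 0.19, adjusted p = 0.22).

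For the members that fell in control mice the values in cKO mice were these. Snap25 was at 2154, 3833 and 2079 CPM in cKO basal and at 1847, 1595 and 2287 CPM in cKO EAE, a fitted -0.49 (SE 0.28, adjusted p = 0.345) with overlap. Vamp1 was at 1324, 857 and 1019 and 1170.5, 988 and 1157 CPM (0.05, SE 0.21), and Syt2 at 809.6, 772 and 613 and 725, 549.5 and 699 CPM (-0.15, SE 0.21). In Vamp1, Syt2, Cplx1 and Sv2b the cKO EAE libraries overlapped the cKO basal ones. The fitted changes of Cplx1, Syn1 and Sv2b were -0.25 (SE 0.21), -0.25 (SE 0.18) and 0.26 (SE 0.31). The fixed members Syt1 (-0.46, SE 0.35, adjusted p = 0.49), Syt11 (-0.41, SE 0.24, adjusted p = 0.355), Dlg4 (0.05, SE 0.53, adjusted p = 0.965), Gphn (0.38, SE 0.60, adjusted p = 0.755) and Slc17a7 (-0.85, SE 0.91, adjusted p = 0.641) had overlapping groups.

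Without cKO basal 2 and cKO EAE 3, 12 of the 40 were called lower and 0 higher in cKO mice, where 3.51% of all genes were called lower, with a median of -0.50. Of the 12, 11 were also among the 28 called in control mice in the same fit, and Stx1a was not. The log2 changes of the 12 were -0.97 for Stx1a, -0.59 for Vamp2, -1.15 for Syt1, -0.87 for Cplx2, -0.65 for Syn2, -0.49 for Sv2a, -0.50 for Syp, -1.60 for Synpr, -0.62 for Slc17a6, -0.55 for Rims1, -0.60 for Dlg4 and -0.66 for Dlg2. In the same fit Vamp1 was at -0.13 (SE 0.18), Syt2 at -0.17 (SE 0.22), Cplx1 at -0.14 (SE 0.19) and Sv2b at -0.05 (SE 0.26), none of them called. The 12 calls rested on 2 cKO EAE libraries. When cKO EAE 1 was left out as well, a choice made after the values were seen, the median log2 fold change of the members was -0.50. That fit left 1 cKO EAE library, so no call is given.

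**Figure D3:**
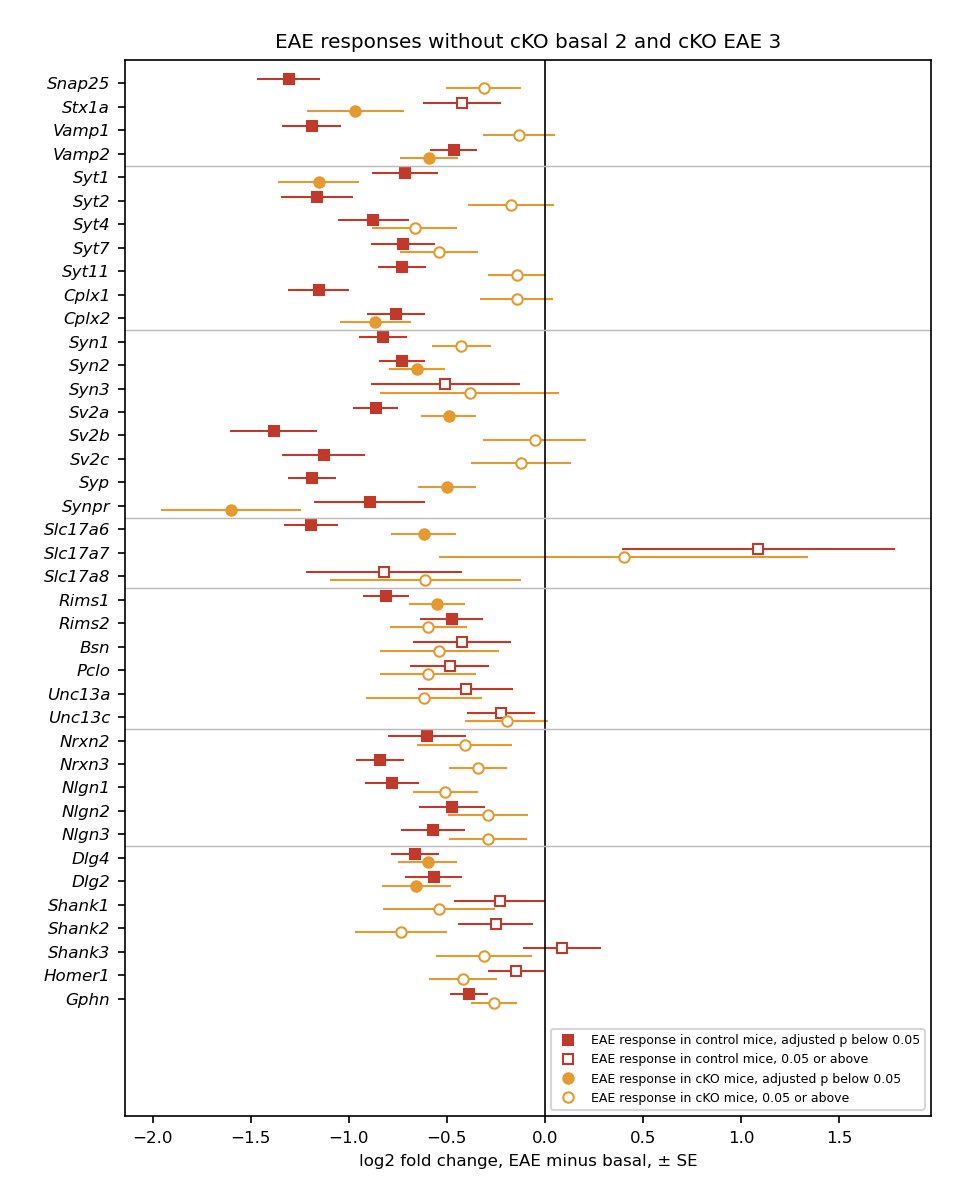
Fitted log2 fold change ± SE, EAE minus basal, in control (squares) and cKO mice (circles) in the fit without cKO basal 2 and cKO EAE 3, with filled symbols for an adjusted p below 0.05. Vamp1, Syt2, Cplx1 and Sv2b lie near 0 in cKO and below -1 in control mice, while Syt1, Cplx2, Vamp2 and Dlg4 lie below 0 in both.

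The third comparison set cKO against control mice at EAE. The genes called higher in cKO cord came from vesicles, fusion, glutamate transport, the active zone and adhesion. By the edgeR quasi-likelihood F test, adjusted after Benjamini and Hochberg over 17914 genes, 11 of the 40 members were called higher (Snap25, Vamp1, Syt2, Syt11, Cplx1, Sv2b, Sv2c, Slc17a6, Rims1, Nrxn3 and Nlgn1) and 0 lower, where 6.13% of all genes were called higher and 1.54% lower. The median log2 difference was 0.49, against 0.00 over all genes, and in 27 members all cKO libraries lay above all control libraries, against 21.2% of all genes (26.7% in the other direction). The calls lay close to the threshold, with adjusted p from 0.044 to 0.0493. Without control EAE 1, 2 or 3 or without cKO EAE 1, 0 members and 0% of all genes were called. Without cKO EAE 3 there were 17 higher (where 9.11% of all genes were higher) and 1 lower (9.1%), and without cKO EAE 2 there were 19 called, where 18.6% of all genes were called. With all 12 libraries in the fit, as used for the EAE responses, 0 members and 0% of all genes were called. The 11 neuron markers summed to 4194, 4741 and 3423 CPM in control EAE and to 9200.2, 6767 and 8232 CPM in cKO EAE, and 8 of the 11 were called higher. The 7 markers of microglia and macrophages went the other way, at 7829, 4130.0 and 3318 and 1221, 2214 and 167 CPM. The 8 ribosomal protein mRNAs, chosen as a sign of RNA quality, summed to 2901, 2386 and 2396 CPM in control and 1547, 1884 and 1227 CPM in cKO EAE. All 8 were lower in cKO without overlap and 1 was called. Control EAE 1 had the highest and cKO EAE 3 the lowest of these sums, as for the microglia and macrophage markers. The 6 oligodendrocyte markers summed to 16058, 15563 and 12376 and 24131, 21876 and 17878 CPM, with fitted differences above 0 in all 6 and 0 called. Their part in the result was not tested.

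Among SNARE genes Snap25 and Vamp1 were higher in cKO. Snap25 was at 848, 1078 and 841 CPM in control and at 1847, 1595 and 2287 CPM in cKO EAE, a log2 difference of 1.09 (SE 0.19, adjusted p = 0.044). Vamp1 was at 589, 671 and 499.8 and 1170.5, 988 and 1157 CPM, a difference of 0.95 (SE 0.15, adjusted p = 0.044). In both genes each cKO library exceeded each control library. Vamp2 showed no such split, at 238, 244 and 239.8 CPM in control and 219, 249 and 360.2 CPM in cKO EAE, with cKO EAE 3 alone far above the control range. Stx1a was at 16.6, 15.2 and 14.9 and 9.49, 11.74 and 15.6 CPM, the lowest value being that of cKO EAE 1. It was the single member called lower without cKO EAE 3, at a log2 difference of -0.52.

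The calcium sensors and clamps divided in the same way. Syt2 was at 299, 366 and 287 CPM in control and 725, 549.5 and 699 CPM in cKO EAE, a difference of 1.09 (SE 0.16, adjusted p = 0.044), and Cplx1 at 565, 669 and 498 and 1129, 941 and 1084 CPM, a difference of 0.90 (SE 0.15, adjusted p = 0.044). Syt11 was at 568, 642 and 579.8 and 943, 835 and 979 CPM, a difference of 0.66 (SE 0.12, adjusted p = 0.044). These 3 genes had every cKO library above every control library. Their relatives Syt1 and Cplx2 overlapped: Syt1 was at 105, 118 and 113 and 89.5, 127 and 217 CPM, at 0.40 (SE 0.30, adjusted p = 0.36), and Cplx2 at 139.5, 163 and 155 and 135, 182 and 253 CPM. In both, cKO EAE 1 was the lowest of all 6 libraries and cKO EAE 3 the highest. Syt4 (79.8 ± 9.40 and 116 ± 27.4 CPM) and Syt7 (108 ± 5.97 and 153 ± 26.2 CPM) did not overlap and were not called.

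Of the vesicle genes the SV2 forms b and c were called. Sv2c (ENSMUSG00000051111, chromosome 13, 95954594 to 96132577, minus strand) had the smallest p of the members. It was at 206, 256 and 201 CPM in control and 590.2, 437 and 605 CPM in cKO EAE, a difference of 1.34 (SE 0.17, adjusted p = 0.044). Sv2b was at 55.1, 63.3 and 39.4 and 163, 95.6 and 139.7 CPM, a difference of 1.38 (SE 0.25, adjusted p = 0.044). Every cKO library was above the control range in both. Sv2a, the form found at nearly all synapses, was at 274 ± 25.4 and 396 ± 57.3 CPM without overlap and without a call, as were Syn2 (178 ± 12.4 and 236 ± 50.5 CPM) and Syn3 (13.8 ± 2.67 and 23.4 ± 3.48 CPM). Syn1 came close to the threshold, at 226, 275 and 233 and 358, 337 and 485 CPM (0.72, SE 0.17, adjusted p = 0.05), and so did Syp, at 248, 267 and 214 and 343, 327 and 442 CPM (0.65, SE 0.15, adjusted p = 0.0505). Both are X-linked, and the EAE libraries are of 1 sex. Synpr was at 15.5, 18.8 and 14.9 and 6.78, 15.5 and 24.98 CPM, with cKO EAE 1 lowest and cKO EAE 3 highest.

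Slc17a6 was the 1 called glutamate transporter, at 96.6, 128 and 100.5 CPM in control and 181, 155 and 247 CPM in cKO EAE, a difference of 0.88 (SE 0.20, adjusted p = 0.0493). Slc17a7 differed by -1.58 (SE 0.90, adjusted p = 0.244), set by control EAE 1, and by 0.11 without that library, and Slc17a8 overlapped. At the active zone Rims1 was called, at 53.5, 63.9 and 56.6 and 81.4, 80.0 and 111 CPM, a difference of 0.69 (SE 0.15, adjusted p = 0.0484). Rims2, Bsn, Pclo and Unc13c lay higher in every cKO library without a call, with log2 differences of 0.43 to 0.59, and Unc13a overlapped. Of the adhesion genes Nrxn3 was at 92.5, 109 and 109 and 181, 144 and 209.7 CPM, a difference of 0.83 (SE 0.16, adjusted p = 0.044), and Nlgn1 at 18.8, 23.4 and 20.2 and 27.3, 30.7 and 36.7 CPM, a difference of 0.64 (SE 0.15, adjusted p = 0.049). Neither overlapped, and neither did Nrxn2, Nlgn2 and Nlgn3, whose differences of 0.34 to 0.36 were not called. In the scaffold 0 of 7 were called, and without cKO EAE 3 Gphn was called higher at 0.33 (SE 0.09, adjusted p = 0.0438). With it, Gphn was at 57.2, 59.7 and 53.9 and 69.3, 70.3 and 85.5 CPM (0.44, SE 0.11, adjusted p = 0.0563) without overlap, as was Dlg2, and Dlg4 at 185, 172 and 163 and 173, 196 and 244 CPM overlapped (0.27, SE 0.14, adjusted p = 0.195), as did Shank1, Shank2, Shank3 and Homer1.

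**Figure D4:**
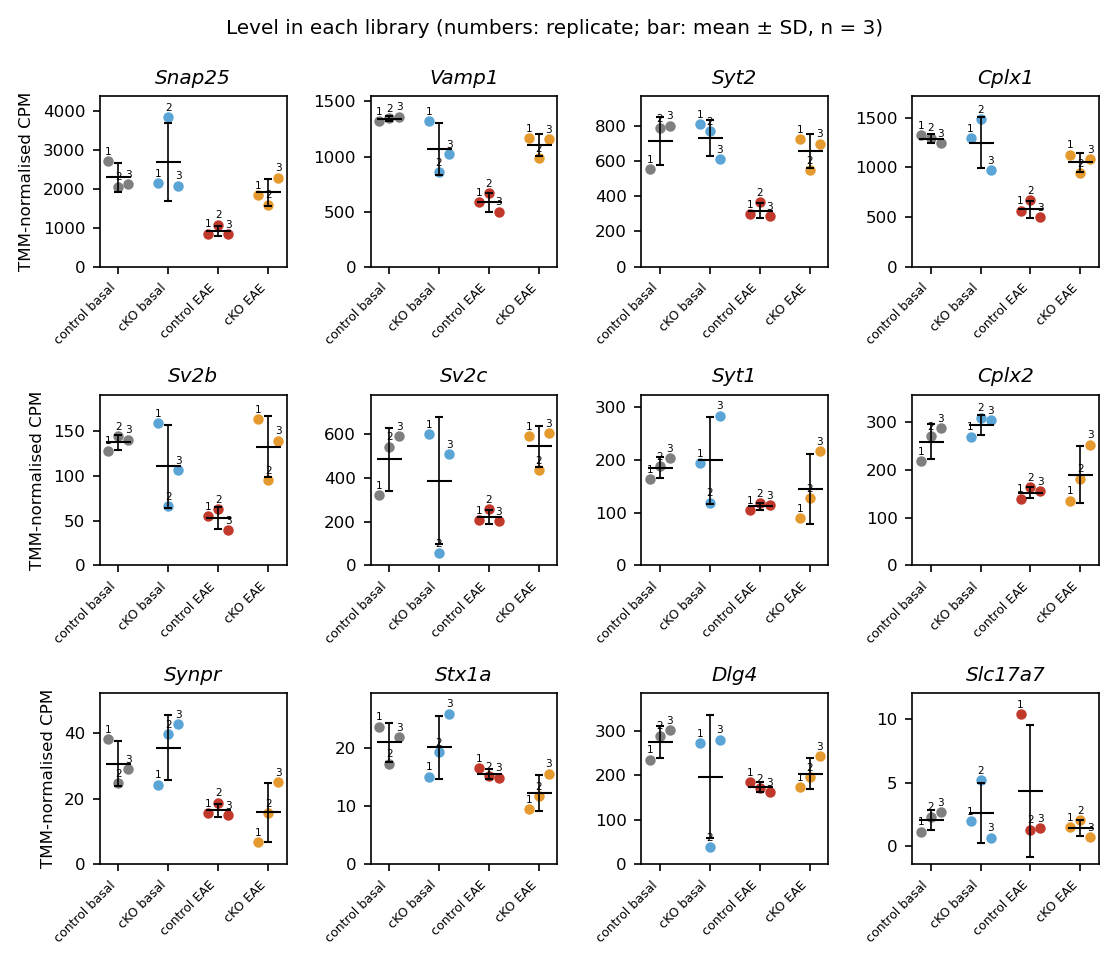
Level in TMM-normalised CPM of 12 of the genes in each library (points, numbered by replicate) with mean ± SD (n = 3) for the 4 groups. Snap25, Vamp1, Syt2, Cplx1, Sv2b and Sv2c separate control EAE from cKO EAE, Syt1, Cplx2, Synpr and Stx1a do not, and the 1 high Slc17a7 point is control EAE 1.

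Related members thus took different values within the same libraries, and their ratios were set beside markers of spinal neuron classes. The ratios and these marker lists were chosen after the values were seen and are given with no test. Counts per base of Syt2 over Syt1 stood at 3.71, 4.57 and 4.32 in control basal, at 4.57, 7.10 and 2.36 in the cKO basal libraries, at 3.12, 3.40 and 2.76 in control EAE and 8.85, 4.73 and 3.52 in cKO EAE. Vamp1 over Vamp2 was 1.41, 1.57 and 1.54 in control and 1.61, 0.665 and 0.979 in cKO mice at basal, then 0.926, 1.03 and 0.781 in control and 2.00, 1.49 and 1.20 in cKO EAE. Cplx1 over Cplx2 was 13.7, 10.8 and 9.75 in control and 10.8, 10.8 and 7.203 in cKO mice at basal, then 9.12, 9.23 and 7.24 in control and 18.8, 11.65 and 9.65 in cKO EAE. In all 3 ratios every cKO EAE library lay above every control EAE library, and cKO EAE 1 was the highest of the 12 libraries, while at basal the genotypes overlapped. The same order of the EAE groups held for Sv2c over Sv2a (0.352, 0.414 and 0.390 in control and 0.751, 0.593 and 0.627 in cKO EAE) and Sv2b over Sv2a (0.109, 0.118 and 0.0884 and 0.241, 0.150 and 0.168). Synpr over Syp went the other way, at 0.0344, 0.0388 and 0.0385 in control and 0.0109, 0.0262 and 0.0312 in cKO EAE.

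The 6 motor neuron markers (Chat, Slc5a7, Slc18a3, Mnx1, Isl1 and Prph) summed to 260.0, 298 and 219 CPM in control basal, 330.4, 153 and 102 in the cKO basal libraries, 101, 114 and 53.8 in control EAE and 407, 210.0 and 288 in cKO EAE. At EAE 4 of the 6 were called higher in cKO. The 8 dorsal horn markers (Lbx1, Lmx1b, Tac2, Tac1, Nts, Sst, Grp and Penk) summed to 221, 246 and 225 CPM in control EAE and 109.8, 257 and 395 CPM in cKO EAE, and 0 of 8 were called. Library cKO EAE 1 had the highest motor neuron sum and the lowest dorsal horn sum of the 12. It also had the highest sum of 4 Schwann cell markers, at 287 CPM, with 127 in cKO EAE 3 and at most 16.6 in the other libraries. Pmp2, 1 of those 4, was at or near 0 throughout. The motor neuron sums of all cKO EAE libraries lay above those of control EAE, and cKO EAE 3 had a higher sum than cKO EAE 2. Its ratios of Syt2 over Syt1, Vamp1 over Vamp2 and Cplx1 over Cplx2 were lower than in cKO EAE 2. Those of Sv2c and Sv2b over Sv2a and of Synpr over Syp were higher. The part of neuron class in the result was not tested. When cKO EAE 1 and cKO EAE 3 were both left out, the median log2 difference of the members was 0.29. That fit set 1 cKO library against 3 controls, so no call is given.

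**Figure D5:**
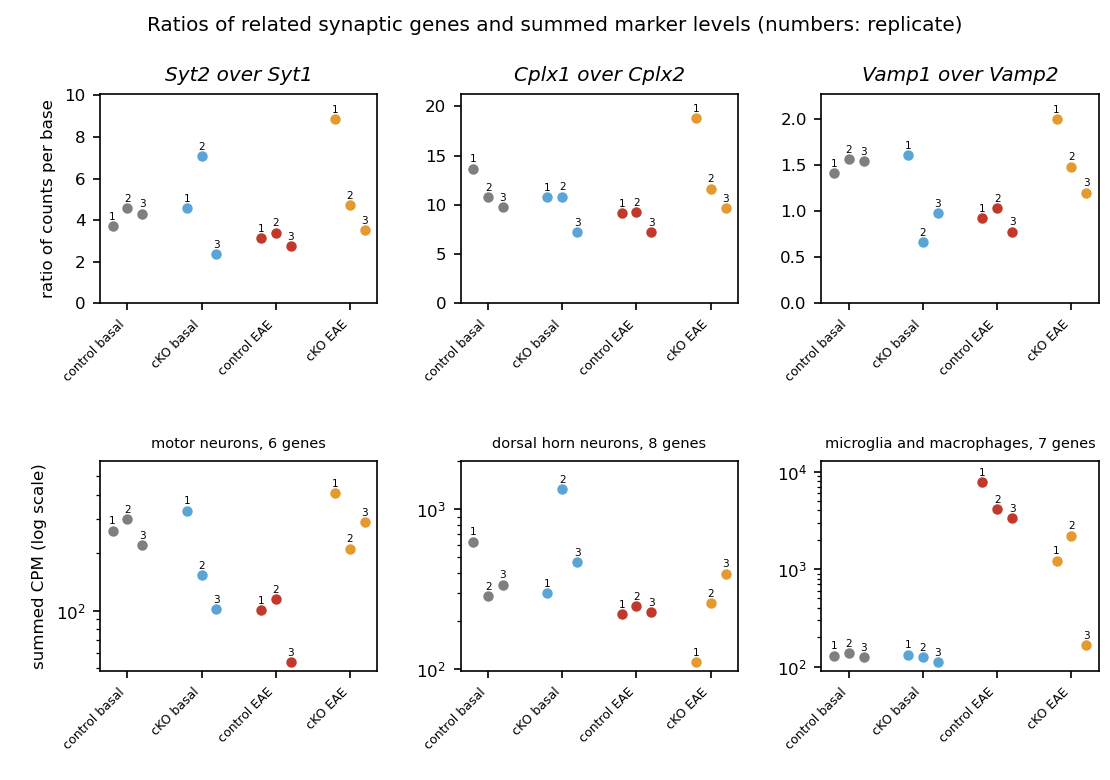
Upper row: ratio of counts per base of Syt2 over Syt1, Cplx1 over Cplx2 and Vamp1 over Vamp2 in each of the 12 libraries (points, numbered by replicate). Lower row: summed CPM, on a log axis, of markers of motor neurons, dorsal horn neurons, and microglia and macrophages; cKO EAE 1 has the highest ratios, the highest motor neuron sum (407) and the lowest dorsal horn sum (110).

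Without disease no member was called between the genotypes. Of the 40 members 0 were called, where 0% of all 17133 genes were called higher and 0% lower, and 0 members had an unadjusted p below 0.05 by the edgeR quasi-likelihood F test. DESeq2's Wald test also called 0 members, where it called 0.00584% of all genes. The median log2 difference was 0.01, with 20 members above and 20 below 0. The SE of the members ran up to 1.05 (Syn3), and up to 0.54 (Slc17a7) without cKO basal 2. Nrxn3 had the smallest p, at 175, 189 and 193 CPM in control and 203, 557 and 205 CPM in cKO basal (0.81, SE 0.46, adjusted p = 0.997). It was the 1 member without overlap, where 2.14% of all genes were higher and 3.64% lower without overlap, and cKO basal 2 gave its high value. Snap25 (0.24, SE 0.35), Syt1 (0.11, SE 0.35), Syn1 (0.11, SE 0.22), Nlgn1 (0.31, SE 0.23), Dlg4 (-0.49, SE 0.69) and Gphn (-0.37, SE 0.78) overlapped. Without cKO basal 2 again 0 were called, with a median of 0.13. Differences of Snap25, Syn1 and Gphn were then -0.11 (SE 0.18), 0.09 (SE 0.15) and 0.15 (SE 0.13).

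The last test asked whether the EAE response itself differed between genotypes, and 0 of 40 members were called, where 0% of 18601 genes were called in either direction. An unadjusted p below 0.05 was reached by 5 members and by 1697 of all 18601 genes, the 5 all with a less negative change in cKO mice. They were Vamp1 (1.25, SE 0.29, adjusted p = 0.547), Sv2b (1.65, SE 0.45, adjusted p = 0.547), Syt2 (1.02, SE 0.30, adjusted p = 0.547), Cplx1 (0.91, SE 0.29, adjusted p = 0.547) and Syn1 (0.58, SE 0.26, adjusted p = 0.547), by the edgeR quasi-likelihood F test. The median difference was 0.45 over the members and -0.05 over all genes. DESeq2's Wald test called 1 member (0.414% of all genes) and limma voom with sample weights 13 (16.1%). Without cKO basal 2 and cKO EAE 3 again 0 were called, with 10 members and 3438 of 18956 genes at an unadjusted p below 0.05 and a median of 0.16. There the differences of Vamp1, Syt2, Cplx1 and Snap25 were 1.06 (SE 0.24, adjusted p = 0.0943), 0.99 (SE 0.29, adjusted p = 0.121), 1.01 (SE 0.24, adjusted p = 0.0969) and 0.995 (SE 0.25, adjusted p = 0.0971), while Syt1 was at -0.44 (SE 0.26) and Dlg4 at 0.06 (SE 0.19). Calls in control and not in cKO mice, as given above, are therefore not shown to differ between genotypes.

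Other synaptic genes were counted in the same way. A wider list of 110 such genes, of which 109 were tested, had 28 called lower and 0 higher with EAE in control mice, 0 called in cKO mice (15 at an unadjusted p below 0.05), and 28 higher and 0 lower in cKO at EAE. Over all genes 5.05% were lower in the first and 6.13% higher in the last of these. In the second 0.00538% of all genes were lower and 0.0323% higher by the edgeR quasi-likelihood F test. There 3643 of all 18601 genes had an unadjusted p below 0.05. Without cKO basal 2 and cKO EAE 3 the wider list had 75 lower and 1 higher in the first. It had 31 lower and 1 higher in the second, and 39 higher and 1 lower in the last. In that order 20.8% of all genes were lower, 3.51% lower and 9.11% higher. By role, in control EAE 12 of 36 tested genes of the release machinery, 6 of 15 of vesicle recycling and filling, 9 of 36 of adhesion and 1 of 22 of the postsynaptic scaffold and signalling were lower. At EAE in cKO 10, 8, 8 and 2 of these were higher. The smallest p in control EAE belonged to Slc32a1, the vesicular transporter of GABA and glycine, at -1.18 (SE 0.17), to the adhesion genes Slitrk1 (-1.18, SE 0.17), Slitrk4 (-1.09, SE 0.20), Clstn1 (-0.93, SE 0.18) and Lrrtm3 (-0.997, SE 0.20), and to the endophilin gene Sh3gl2 (-1.19, SE 0.19), which acts in vesicle retrieval. In cKO against control EAE they belonged to the receptor phosphatase Ptprd (0.75, SE 0.10), Slc32a1 (0.89, SE 0.13), Syt3 (0.77, SE 0.11), Slitrk1 (1.04, SE 0.16), Rab3b (0.71, SE 0.11) and Rph3a (0.83, SE 0.13), the last of which encodes rabphilin, an effector of Rab3 proteins. Both comparisons share the control EAE libraries. In the wider list 0 genes were called at basal and 0 in the difference of the responses.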

How the data were processed

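RNA of whole spinal cord was sequenced in 12 libraries, 3 biological replicates in each of 4 groups set by genotype and condition in the labels. The deposited file holds raw counts per gene from the authors; the submitters' processing notes name HISAT2 2.0.5, featureCounts 1.5.0-p3 and the build mm10. The strand setting is not given in the sources used here. Low-count genes were removed with filterByExpr (minimum count 10, minimum total 15), scaled by TMM and tested with edgeR 4.0.16 (quasi-likelihood F test, R 4.3.3), with Benjamini-Hochberg adjustment over all tested genes and a threshold of 0.05. The EAE responses and their difference came from 1 fit of 12 libraries, and each genotype comparison from its own 6. The SE is the log2 fold change over the square root of F. DESeq2 1.42.0 and limma 3.58.1 were alternatives, and the fits were tested on simulated data. Full statistics are given to the 10 members with the smallest p in a comparison and to 10 set members, and up to 6 genes of a wider synaptic list are named by p. Members and lists were chosen with earlier results of these data known. No 2 libraries of a group agreed within sampling noise. Sequences are from RefSeq (GRCm38.p6), gene overlaps from GENCODE M21.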

Additional observations from a re-analysis of the deposited data

How the results depend on the processing

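Of the values compared with an alternative, 1299 single-gene and median values and 62 counts were held as unchanged. For a single gene this meant the same direction and side of the threshold, and for a count a change of at most 1.5 times. For a median it meant a move smaller than the spread between libraries of a group, whatever the sign. The basal median went from 0.01 to as low as -0.24, without cKO basal 3. Of the single-gene values 55 reversed, 87 passed the threshold newly and 95 no longer did. Of the counts 15 grew and 8 shrank by over 1.5 times. The number of members called moved most. In control mice 8 were called (17.1% of all genes in either direction), with 35 under limma voom with sample weights (59.8%), 28 without the libraries that stand apart (45.8%), 27 with only the libraries of that genotype (45.6%), and 5 to 24 when 1 library was left out (9.04% to 42.9%). In cKO mice 0 (0.0376%) became 20 under voom (19.6%) and 12 without the libraries that stand apart (14.3%). With 1 library left out this number was 0 to 2 (0.0261% to 5.63%). For cKO against control at EAE 11 (7.67%) became 22 under DESeq2 (23.1%), 23 under voom (32.3%) and 18 without cKO EAE 3 (18.2%). The count was 0 with all 12 libraries in the fit (0%), and 0 to 19 with 1 library left out (0% to 18.6%). With the replicate number as a block this count was 0 (0%). The block gave 8 (13.5%) and 0 (0.0269%) for the EAE responses in control and cKO mice, and 0 (0%) in the remaining comparisons. Correlations of same-numbered libraries lay between -0.458 and 0.371. They used deviations from means of 3 libraries, so they cannot decide whether the numbers pair the mice. The difference of the responses gave 1 under DESeq2 (0.414%) and 13 under voom (16.1%).

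Some signs turned (log2 values). In control EAE Slc17a7 was -0.00537 under voom and -0.67 to 1.52 with 1 library left out. In cKO EAE, under voom, without the libraries that stand apart and without cKO EAE 1 as well, Slc17a7 was 0.35, 0.40 and 0.62, Dlg4 -0.60, -0.60 and -0.50, and Gphn -0.21, -0.26 and -0.24; with 1 library left out they ran from -1.35 to 0.10, -0.44 to 0.37 and -0.14 to 0.76. For cKO against control at EAE Syt1 was -0.0804 under voom and -0.0126 without cKO EAE 3 (-0.0126 to 0.65 with 1 left out), and Slc17a7 ran from -2.01 to 0.11. At basal, under voom and without cKO basal 2, Syp was -0.21 and -0.24, Syt11 -0.0670 and -0.0304, Slc17a7 -1.003 and -0.63, and Gphn 0.13 and 0.15. Without cKO basal 2 Slc17a8 was -0.0774, Nlgn3 -0.11, Snap25 -0.11 and Dlg4 0.00623. With 1 library left out the ranges were -0.24 to 1.31 (Syp), -0.0304 to 0.47 (Syt11), -0.63 to 0.81 (Slc17a7), -0.75 to 0.15 (Gphn), -0.0774 to 1.75 (Slc17a8), -0.11 to 1.07 (Nlgn3), -0.11 to 0.39 (Snap25), -0.83 to 0.00623 (Dlg4) and -0.24 to 0.37 (Syt1). In the difference of the responses Slc17a6 was -0.0291 with DESeq2 size factors and under DESeq2 (-0.21 to 0.80 with 1 left out), and Slc17a7 was 0.36 under voom. Under voom, without the libraries that stand apart and without cKO EAE 1 as well, Syt1 was -0.44, -0.44 and -0.16 (-0.16 to 0.62) and Syp 0.69, 0.69 and 0.70 (-0.68 to 0.84). The cause was not tested. With 3 mice a group and 2 libraries that stand apart, adjusted p-values near the threshold are fragile, and the low counts of Slc17a7 and Slc17a8 limit what their values can show.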
